A study of Mus musculus with 18 samples.

Results

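The heat shock and chaperone genes described here are Hspa1a, Hspa1b, Hspa8, Hspa5, Hsph1, Dnajb1, Hsp90aa1, Hsp90ab1, Hspb1 and Hsf1, chosen by symbol. All 10 of them were among the 27179 genes of the deposited table (which lists Entrez identifiers), and all 10 were among the 15863 genes that passed a filter on low counts. RNA came from the brain hemispheres of 18 C57BL/6J mice, an inbred wild-type strain, which received a gavage each day over 14 days, starting at 4 months. The groups were vehicle (5 mice, 2 male and 3 female), 125 mg/kg glyphosate (5 mice, 3 male and 2 female), 250 mg/kg (4 mice, 3 male and 1 female) and 500 mg/kg (4 mice, 2 male and 2 female), given as pure glyphosate in neutralised sodium hydroxide solution, with that solution alone as the vehicle. All mice were perfused about 4 h after the last gavage, and each mouse gave 1 library. Mice were housed by sex and dose, 3 to a cage, so cage and dose cannot be told apart.

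Heat shock proteins are molecular chaperones: they bind unfolded or newly made proteins and keep them from aggregating. Hsp70 proteins work in cycles of ATP hydrolysis, driven by J-domain co-chaperones such as Dnajb1 and reset by nucleotide exchange factors such as Hsph1, and Hsp90 proteins receive many of their clients. In stressed cells the transcription factor Hsf1 trimerises, binds repeats of the pentamer nGAAn and raises the transcription of its targets, while Hspa5, the Hsp70 of the endoplasmic reticulum, is raised by the unfolded protein response. In the brain the inducible Hsp70 genes are widely used as markers of cellular stress, whereas Hspa8 and the Hsp90 genes are abundant at rest in neurons.

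Promoter windows are shown for the members whose levels turned out to move together or to be variable, since they carry the sequences that these factors read. The table of RefSeq windows on GRCm38.p6 used here held a window for 6 of the 10 members, Hspa1a, Hspa1b, Hspa5, Hsph1, Dnajb1 and Hspb1. Printed for 4 genes are the 250 bases before the RefSeq gene start, read 5′ to 3′ on the gene's strand, with capitals on matches to a pair of inverted Hsf1 pentamers (GAANNTTC or TTCNNGAA) or to the endoplasmic reticulum stress element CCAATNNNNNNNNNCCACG.
Hspa1a, minus strand, chr17:34972157-34972406: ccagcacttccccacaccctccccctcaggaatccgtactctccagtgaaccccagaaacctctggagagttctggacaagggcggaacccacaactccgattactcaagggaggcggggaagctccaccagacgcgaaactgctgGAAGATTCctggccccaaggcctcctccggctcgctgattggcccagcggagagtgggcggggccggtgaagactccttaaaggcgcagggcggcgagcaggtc
Hspa1b, minus strand, chr17:34959239-34959488: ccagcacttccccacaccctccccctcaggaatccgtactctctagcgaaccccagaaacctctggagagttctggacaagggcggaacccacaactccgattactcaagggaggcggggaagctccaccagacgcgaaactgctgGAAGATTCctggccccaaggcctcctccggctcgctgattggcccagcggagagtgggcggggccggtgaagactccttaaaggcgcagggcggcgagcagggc
Hspb1, plus strand, chr5:135887669-135887918: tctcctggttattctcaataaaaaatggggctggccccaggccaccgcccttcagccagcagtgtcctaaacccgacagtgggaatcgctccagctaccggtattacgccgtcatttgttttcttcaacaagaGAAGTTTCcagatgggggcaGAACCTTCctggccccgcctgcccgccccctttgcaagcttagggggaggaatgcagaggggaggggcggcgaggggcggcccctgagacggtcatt
Hspa5, plus strand, chr2:34771840-34772089: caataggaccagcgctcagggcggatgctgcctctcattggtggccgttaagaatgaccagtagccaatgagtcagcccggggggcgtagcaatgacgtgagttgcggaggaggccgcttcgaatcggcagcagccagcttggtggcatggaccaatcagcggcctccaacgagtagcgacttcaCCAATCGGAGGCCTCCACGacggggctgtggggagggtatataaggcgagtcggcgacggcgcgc

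The Hspa1a and Hspa1b windows held the same pentamer pair, GAAGATTC, at bases -104 to -97 before the start. They differed at 3 of 250 bases, T44C, C47T and G249T, written from Hspa1b to Hspa1a and counted from the window's 5′ end. Hspb1 held GAAGTTTC at -117 to -110 and GAACCTTC at -97 to -90. Hsph1, whose window is not printed because both of its listed starts lie inside the gene's span, held TTCTCGAA at -33 to -26 before one start and at -54 to -47 before the other. The Hspa5 window held the stress element at -65 to -47, and GENCODE's model of that gene begins at 34771970, inside the window. Both starts listed for Dnajb1 lacked all of these letters in the window, which says nothing about binding elsewhere. The window of the second Dnajb1 start, chr8:83608298-83608547, lies wholly inside the gene's span. Searched on both strands (each pentamer pair reads the same on both, and the 2 pairs can share a pentamer), GAANNTTC was in 6.69% and TTCNNGAA in 7.17% of 32851 windows of the same length, and the stress element in 0.113%. An array of 3 pentamers, GAANNTTCNNGAA or its complement TTCNNGAANNTTC, was in 0.466% of windows and in none of the members' windows. A match is a description of sequence only.

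In RefSeq's annotation of GRCm38.p6, the Hsp70 genes were Hspa1a (Entrez 193740) at chr17:34969359-34972156 on the minus strand, Hspa1b (Entrez 15511) at chr17:34956429-34959238 on the minus strand, Hspa8 (Entrez 15481) at chr9:40801276-40805202 on the plus strand and Hspa5 (Entrez 14828) at chr2:34772090-34776529 on the plus strand. The co-chaperones were Hsph1 (Entrez 15505) at chr5:149616843-149636498 on the minus strand and Dnajb1 (Entrez 81489) at chr8:83608175-83612653 on the plus strand, and the Hsp90 genes Hsp90aa1 (Entrez 15519) at chr12:110691036-110696395 on the minus strand and Hsp90ab1 (Entrez 15516) at chr17:45567778-45573261 on the minus strand. The small heat shock protein was Hspb1 (Entrez 15507) at chr5:135887919-135889563 on the plus strand, and the transcription factor Hsf1 (Entrez 15499) at chr15:76477362-76501155 on the plus strand.

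Total counts ranged from 3948096 to 11732885 per mouse. Levels are in CPM, counts relative to the TMM-scaled library total, and levels of different genes are ranked only per kilobase of exon. Mice G4 (500 mg/kg, female) and G9 (vehicle, female) stood apart: their median correlations with the other libraries were 0.943 and 0.942, against 0.959 to 0.9747 in the remaining 16. Summed over 9 markers of cortical and hippocampal excitatory neurons, G4 had 373 and G9 had 472 CPM, against 1684 to 5507 CPM in the other mice, and no marker of that list was at 0 in any mouse. Summed over 9 markers of midbrain and hindbrain neurons, G4 had 677 and G9 had 385 CPM, and the other mice ranged from 15.3 to 580 CPM. For 9 oligodendrocyte markers the sum was 16326 CPM in G4 and 6667 CPM in G9, against 3937 to 10094 CPM in the other mice. In whole-tissue RNA, fewer cells of a type and less RNA per cell cannot be told apart.

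Per kilobase of exon, Hspa8, the constitutive cytosolic Hsp70, had the highest level of the members, 457 ± 68.0 CPM per kilobase (SD, n = 18). Hsp90ab1 followed at 262 ± 37.5 and Hsp90aa1 at 180 ± 38.2 CPM per kilobase, then Hspa5 at 64.8 ± 8.78, Dnajb1 at 19.4 ± 2.83 and Hsph1 at 16.1 ± 3.18. The lowest levels were those of Hspb1 at 8.36 ± 2.93, Hspa1b at 8.22 ± 3.28, Hspa1a at 8.15 ± 2.20 and Hsf1 at 5.004 ± 0.694 CPM per kilobase. This order depends on the exon length used, which was 7.099 kb for Hsf1 and 7.266 kb for Hsph1. That length was 2.967 kb for Hspa1a, 2.803 kb for Hspa1b, 1.031 kb for Hspb1 and 3.204 kb for Dnajb1. Before division by length, Hsf1 averaged 35.5 CPM, above Hspa1a (24.2), Hspa1b (23.0) and Hspb1 (8.62). Hsph1 averaged 117 CPM, above Dnajb1 (62.1). Which transcripts were present was not tested. Across mice, the range of Hspa8 did not overlap that of Hsp90ab1, though only just (lowest Hspa8 334.5 and highest Hsp90ab1 334.1 CPM per kilobase), the 2 Hsp90 genes overlapped, and Hspa5 lay below both and above Dnajb1. Dnajb1 and Hsph1 overlapped each other, Hsph1 overlapped Hspb1, and the 4 genes at the low end overlapped one another.

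The members differed in how much they varied between mice. The coefficient of variation of the CPM was 39.9% for Hspa1b, 35.0% for Hspb1 and 27.0% for Hspa1a, and lay between 13.5% (Hspa5) and 21.3% (Hsp90aa1) for the other 7. The lowest and highest mouse differed 3.94-fold for Hspa1b, 4.35-fold for Hspb1 and 1.65-fold for Hspa5. The 3 most variable members also had the lowest raw counts, 70 to 321 (Hspa1b), 24 to 123 (Hspb1) and 82 to 264 (Hspa1a) per mouse. The part of counting noise in their variation was not tested. The highest levels of Hspb1 were in G4 and G9 (13.7 and 13.6 CPM). Among all genes tested, the coefficient of variation of Hspa1b was at percentile 78.4 and that of Hspa5 at percentile 15.5.

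**Figure D1:**
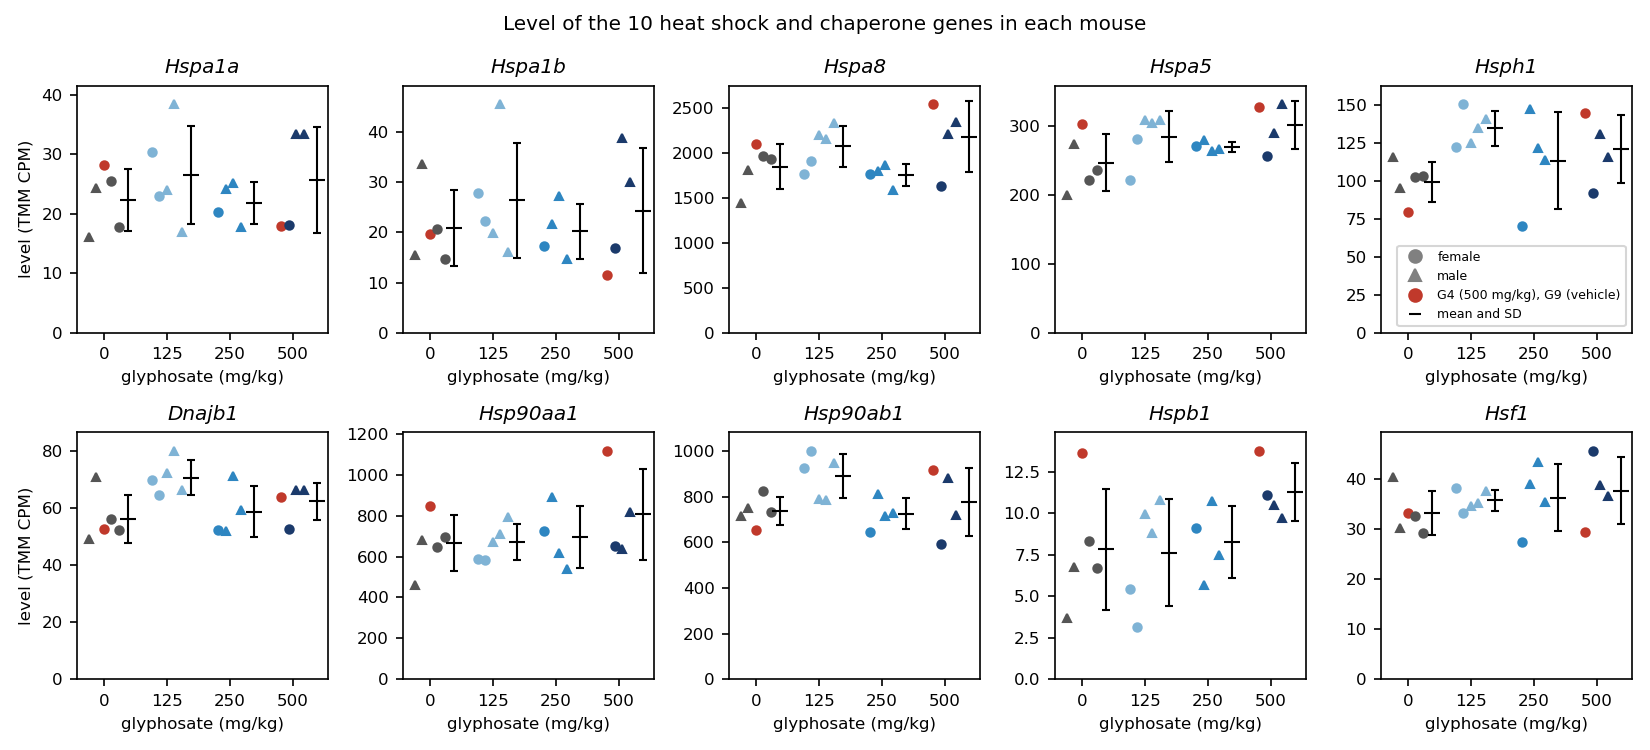
Level (TMM-scaled CPM, y axis from 0) of each of the 10 genes in each mouse, by glyphosate dose in mg/kg (x axis), with circles for females, triangles for males, red for mice G4 and G9, and the mean and SD of each group beside its points. The groups overlap for most genes. The 5 mice at 125 mg/kg lie above all 5 vehicle mice for Hsph1, with 122 to 150 against 79.02 to 116 CPM. The share of all genes that separate in this way was not counted.

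None of the 10 genes passed the test for a change with dose. With sex as covariate and the slope in log2 per 500 mg/kg, edgeR's quasi-likelihood test with Benjamini-Hochberg adjustment over all genes called 0 of 10 at an adjusted p of 0.05, and none had an unadjusted p under 0.05. Of all 15863 genes the adjusted test called 0.29% and the unadjusted one 13.2%. DESeq2 also called 0 of the 10, against 1.4% of its genes. The slopes were positive for 8 of 10 members, with a median of 0.15, against a median of 0.01 and 51.2% positive over all genes. A test for any difference among the 4 dose groups also called 0 of 10, with no unadjusted p under 0.05 either, against 0.0441% of all genes called and 15% at an unadjusted p under 0.05. DESeq2 called none there, against 3.4%. Dnajb1 had the smallest p of the members in that test, 0.0520 (adjusted p = 0.337).

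Hspa1a and Hspa1b, which encode the stress-inducible cytosolic Hsp70 and lie in the major histocompatibility region of chromosome 17, had no slope distinguishable from 0. Hspa1b was at 15.6, 33.8, 19.7, 20.6 and 14.7 CPM in the vehicle mice (G1, G5, G9, G15 and G18), at 27.9, 22.4, 19.9, 45.6 and 16.2 CPM at 125 mg/kg (G25, G29, G34, G40 and G45), at 17.3, 21.7, 27.3 and 14.8 CPM at 250 mg/kg (G49, G64, G66 and G71), and at 11.6, 16.9, 38.9 and 30.1 CPM at 500 mg/kg (G4, G79, G87 and G90). The highest and the lowest mouse were both glyphosate-treated, and the 500 mg/kg range enclosed the vehicle range. The Hspa1b slope was -0.01 (95% interval -0.64 to 0.63, adjusted p = 0.996). Hspa1a was at 16.02, 24.4, 28.1, 25.5 and 17.8 CPM in vehicle mice, at 30.4, 23.0, 23.9, 38.5 and 16.9 CPM at 125 mg/kg, at 20.2, 24.2, 25.2 and 17.7 CPM at 250 mg/kg, and at 17.99, 18.1, 33.5 and 33.4 CPM at 500 mg/kg, with the mice in the same order. At 500 mg/kg the low pair were the females and the high pair the males. The Hspa1a slope was 0.08 (95% interval -0.42 to 0.58, adjusted p = 0.923). The annotated transcripts of the 2 genes share sequence: 49.9% of the 100-base windows of Hspa1b and 48.6% of those of Hspa1a also occur in another gene's transcripts, mostly each other's, so how counting divided such reads is uncertain. Summed into 1 gene, they had a slope of 0.03 (adjusted p = 0.976).

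Hspa5, also known as BiP, had the smallest p of the members in the dose regression. Its level was 200, 273, 303, 221 and 235 CPM in vehicle mice, 221, 280, 308, 304 and 308 CPM at 125 mg/kg, 270, 279, 263 and 266 CPM at 250 mg/kg, and 328, 256, 289 and 331 CPM at 500 mg/kg. The 4 mice at 250 mg/kg lay close together, within 263 to 279 CPM, and the groups at 500 mg/kg and vehicle overlapped. Its slope was 0.23 (SE 0.13, adjusted p = 0.446). At 500 mg/kg against vehicle the log2 difference was 0.28 (95% interval 0.00 to 0.56, adjusted p = 0.432), which did not pass.

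Hspa8, which folds newly made proteins and uncoats clathrin vesicles, averaged 2182 ± 392.2 CPM at 500 mg/kg (SD, n = 4) against 1848 ± 250 CPM in vehicle mice (SD, n = 5), and its slope was 0.17 (SE 0.15, adjusted p = 0.644). Hsp90aa1, the inducible Hsp90, averaged 807 ± 224 CPM at 500 mg/kg against 668 ± 138 CPM in vehicle mice, with a slope of 0.29 (SE 0.18, adjusted p = 0.506). Its highest level, 1119 CPM, was in G4, one of the 2 mice that stood apart, and without G4 and G9 the slope was 0.15. Other genes' transcripts hold 28.2% of the 100-base windows of Hspa8 (mainly Gm15459) and 38.0% of those of Hsp90aa1 (mainly Gm12346), so some reads of both are of uncertain origin. Hsp90ab1, the constitutive Hsp90, had a slope of -0.02 (SE 0.15, adjusted p = 0.979).

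Hspb1 encodes a small heat shock protein that holds unfolded proteins without ATP, and it had the largest slope of the members. It was at 3.70, 6.73, 13.6, 8.33 and 6.71 CPM in vehicle mice, at 5.41, 3.16, 9.96, 8.77 and 10.8 CPM at 125 mg/kg, at 9.13, 5.67, 10.7 and 7.45 CPM at 250 mg/kg, and at 13.7, 11.1, 10.51 and 9.68 CPM at 500 mg/kg. Vehicle mouse G9 was close to the highest 500 mg/kg mouse, and the other 4 vehicle mice lay below all 4 mice at 500 mg/kg. The slope was 0.55 (SE 0.31, 95% interval -0.10 to 1.21, adjusted p = 0.462), and 0.64 without G4 and G9 (adjusted p = 0.446). With the number that opens each sample title as a block its direction turned, to -0.19. What that number marks is not given in the sources used here, and only 43 and 46 are shared by mice of more than 1 dose group. In both, all vehicle mice were female and all glyphosate mice male, so dose and sex cannot be told apart within either. Its raw counts were low, 24 to 123 per mouse, and 44.0% of its 100-base windows also occur in Hsp25-ps1. Hsf1 itself had a slope of 0.16 (SE 0.13, adjusted p = 0.635), with 37.6 ± 6.66 CPM at 500 mg/kg and 33.1 ± 4.40 CPM in vehicle mice.

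**Figure D2:**
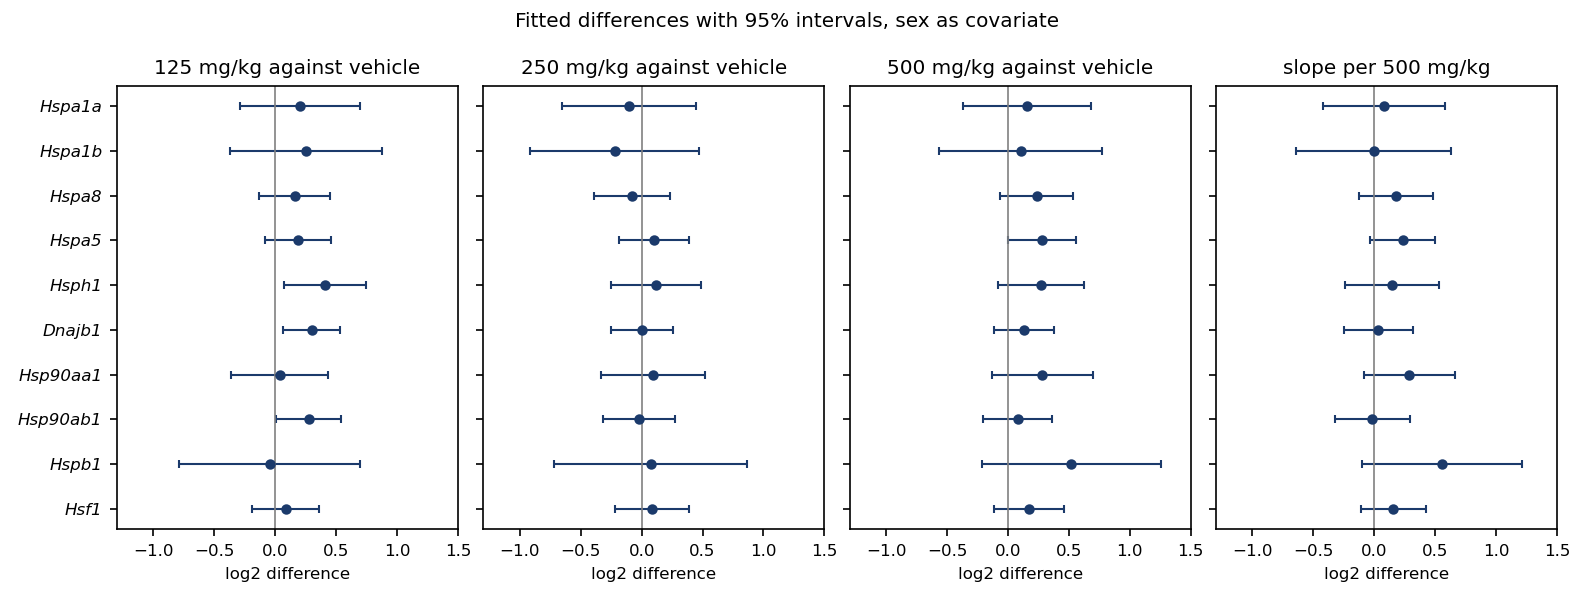
Fitted log2 differences (x axis) of the 10 genes (y axis) with 95% intervals, for 125, 250 and 500 mg/kg against vehicle and for the slope per 500 mg/kg, sex as covariate. At 500 mg/kg all 10 points are above 0 and 9 intervals include 0, with the lower bound of Hspa5 at 0.

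Taken dose by dose, more of the differences were positive at the lowest and the highest dose than at the middle one, without a call. At 125 mg/kg 9 of 10 differences from vehicle were positive, with a median of 0.19 on the log2 scale (all genes, 0.00 and 49.8% positive). At 250 mg/kg 6 of 10 were positive (median 0.04, all genes 0.00 and 49.9%), and at 500 mg/kg 10 of 10 (median 0.20, all genes 0.00 and 49.8%). The 3 comparisons share the vehicle mice, and levels of some members moved together, so the signs are not independent. Vehicle mouse G1 had the lowest level of all mice for Hspa8, Hsp90aa1, Hspa5, Dnajb1 and Hspa1a. Without G1 the differences at 500 mg/kg were 0.20 for Hspa5 (0.28 with it) and 0.31 for Hspb1 (0.52). Those at 125 mg/kg were 0.23 for Dnajb1 (0.30) and 0.46 for Hsph1 (0.41). The positive differences were not counted without G1. edgeR called 0 of 10 members at each dose. Over all genes its calls amounted to 0% (125 mg/kg), 0% (250 mg/kg) and 0.0189% (500 mg/kg). An unadjusted p under 0.05 was found for 3 members at 125 mg/kg (11.2% of all genes), none at 250 mg/kg (3.76%) and 1 at 500 mg/kg, Hspa5 (11.6%). DESeq2 called no member at any dose, against 0.221% (125 mg/kg), 0% (250 mg/kg) and 0.964% (500 mg/kg) of its genes.

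The 3 members with an unadjusted p under 0.05 at 125 mg/kg were Hsph1, Dnajb1 and Hsp90ab1. Hsph1, the Hsp110 that exchanges nucleotide on Hsp70, was at 122, 150, 125, 135 and 141 CPM at 125 mg/kg, against 116, 95.1, 79.02, 103 and 103 CPM in vehicle mice. The groups did not overlap, but the share of all genes that separate in this way was not counted. In this comparison 11.2% of all genes had an unadjusted p under 0.05. The Hsph1 level at 125 mg/kg was 1.33-fold that of vehicle (95% interval 1.05 to 1.68, adjusted p = 0.378). At the higher doses Hsph1 was at 70.0, 147, 121 and 114 CPM (250 mg/kg) and at 144, 92.0, 131 and 116 CPM (500 mg/kg), both overlapping vehicle. Dnajb1 was at 69.8, 64.7, 72.5, 80.1 and 66.4 CPM at 125 mg/kg, against 49.1, 70.8, 52.5, 56.2 and 52.2 CPM in vehicle mice. One vehicle mouse, G5, overlapped the treated range, and the ratio was 1.23 (95% interval 1.04 to 1.45, adjusted p = 0.372). Hsp90ab1 averaged 890 ± 97.1 CPM at 125 mg/kg against 737 ± 62.1 CPM in vehicle mice, a log2 difference of 0.27 (95% interval 0.01 to 0.54, adjusted p = 0.438).

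No member passed the test for a difference between the sexes. edgeR called 0 of 10 (0.0441% of all genes), DESeq2 called 0 (0.187%), and 1 member, Hspa1b, had an unadjusted p under 0.05 (7.99% of all genes). Hspa1b averaged 18.9 ± 4.99 CPM in 8 females and 26.4 ± 10.6 CPM in 10 males, with ranges of 11.6 to 27.9 CPM in females and 14.8 to 45.6 CPM in males. With dose group in the fit, the level in females was 0.701-fold that in males (95% interval 0.50 to 0.98, adjusted p = 0.622). The slope on dose was also compared between the sexes: 0 of 10 members were called (0% of all genes), and 1 had an unadjusted p under 0.05 (1.65%). That was Hspa1a, whose slope was lower in females than in males by 1.05 on the log2 scale per 500 mg/kg (SE 0.43, adjusted p = 0.9999). DESeq2 was not run for that interaction.

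Levels of some members moved together across mice. Over 45 pairs and 18 mice, Pearson's r of log2(CPM + 1) was 0.89 for Hspa1a and Hspa1b, the pair with near-identical windows (Spearman's rho 0.87; permutation p for r 1e-05, the smallest that 100000 permutations can give, adjusted p = 0.00045, and for rho 4e-05, adjusted p = 0.0018). For this pair reads shared between the genes move with the result, and their part was not tested. Hsph1 and Hsp90ab1 had r 0.78 (rho 0.77, permutation p 7e-05, adjusted p = 0.00157, and for rho 0.00029, adjusted p = 0.00435). Hspa5 and Hspa8 had r 0.77 (rho 0.80, permutation p 0.00021, adjusted p = 0.00315, and for rho 0.00012, adjusted p = 0.0027). Left without the 2 mice farthest from the median of the first gene, these values were 0.85, 0.73 and 0.68, and as deviations from the mean of dose group and sex they were 0.90, 0.78 and 0.77. The Hspa8 and Hsp90aa1 pair had r 0.72 and rho 0.56 (permutation p 0.00073 and 0.0183, adjusted p = 0.00821 and 0.137), and r was 0.47 without G1 and G4, 0.62 without G4 and G9, and 0.80 as deviations from the mean of dose group and sex. Hspa5 and Hsp90aa1 (r 0.70, adjusted permutation p = 0.00909, rho 0.65, adjusted permutation p = 0.0513) and Hspa1b and Dnajb1 (r 0.63, adjusted permutation p = 0.0365, rho 0.61, adjusted permutation p = 0.0703) passed on r but not on rho. The other 39 pairs did not pass the threshold on r.

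**Figure D3:**
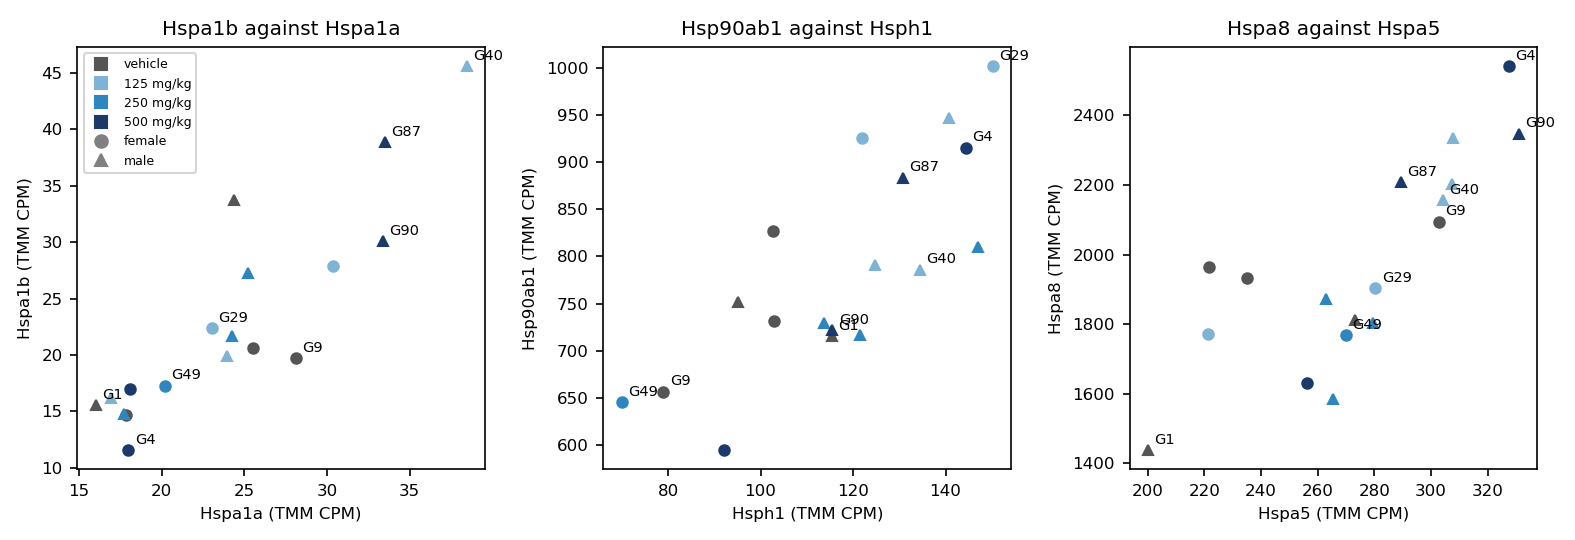
Levels (TMM-scaled CPM) of Hspa1b against Hspa1a, of Hsp90ab1 against Hsph1 and of Hspa8 against Hspa5, 1 point per mouse, coloured by dose, with circles for females and triangles for males and some mice named. Mouse G40 is highest for both Hspa1 genes (38.5 and 45.6 CPM), and mice of all 4 dose groups lie along each trend.

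Genes outside the list whose levels tracked a member were picked by the highest r over the 18 mice, so their r is a description with no test. For Hspa1b these were Stk40 (r 0.74), Ptgs2 (0.73), the activity-induced cyclooxygenase-2, and Pdgfb (0.72). For Hspa5 they were Rspry1 (0.81), Zfp24 (0.81) and Hacd3 (0.80). For Hsp90ab1 they were App (0.94), Aldoa (0.91), a glycolytic enzyme, and Aplp1 (0.90), all at 642 to 1119 CPM. For Hspb1 they were Minar1 (0.86), Grin3a (0.86) and Fam131c (0.86).

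Members were also set against marker lists of cell types and responses, 130 relations in all. Since G4 and G9 lay far from the rest in the excitatory neuron markers, r is given for every list over the other 16 mice. One relation passed an adjusted p of 0.05 on r, that of Hsp90ab1 with microglial markers, and none passed on rho. Hspb1, which did not pass, had r 0.75 with the mean level of the 9 midbrain and hindbrain neuron markers (rho 0.70, permutation p 0.00077 for r and 0.00323 for rho, adjusted p = 0.05 and 0.202). It had r -0.64 with the 9 excitatory neuron markers (rho -0.69, permutation p 0.00717 and 0.00466, adjusted p = 0.255 and 0.202). Without the 2 mice farthest from the median of the markers these r were 0.70 and -0.55. The summed midbrain and hindbrain markers were 199 to 677 CPM at 500 mg/kg and 15.3 to 385 CPM in vehicle mice, and the summed excitatory markers 373 to 2517 CPM and 472 to 4626 CPM. Of the 9 midbrain and hindbrain markers, Slc6a3 had 0 counts in 4 mice, Hoxb5 and Hoxa5 in 2 each, and Slc6a5 and Hoxb3 in 1 each, none of them at 500 mg/kg. The dose regression called 2 of these 9 markers as higher with dose. They were Slc6a3 (slope 6.30, adjusted p = 0.000729) and Ddc (2.57, adjusted p = 0.0341). The slopes of 7 were positive, and those of Hoxa5 (-0.95) and Hoxb5 (-0.27) negative. The part of these markers in the slope of Hspb1 was not tested. Hsp90ab1 had r 0.80 with 7 microglial markers (rho 0.74, permutation p 0.00016 and 0.00138, adjusted p = 0.0208 and 0.179, and r 0.75 without G29 and G66). The summed microglial markers were 269 to 340 CPM at 125 mg/kg and 149 to 264 CPM in vehicle mice, so they too were higher at the dose where Hsp90ab1 was highest, and the part of this in the difference was not tested.

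**Figure D4:**
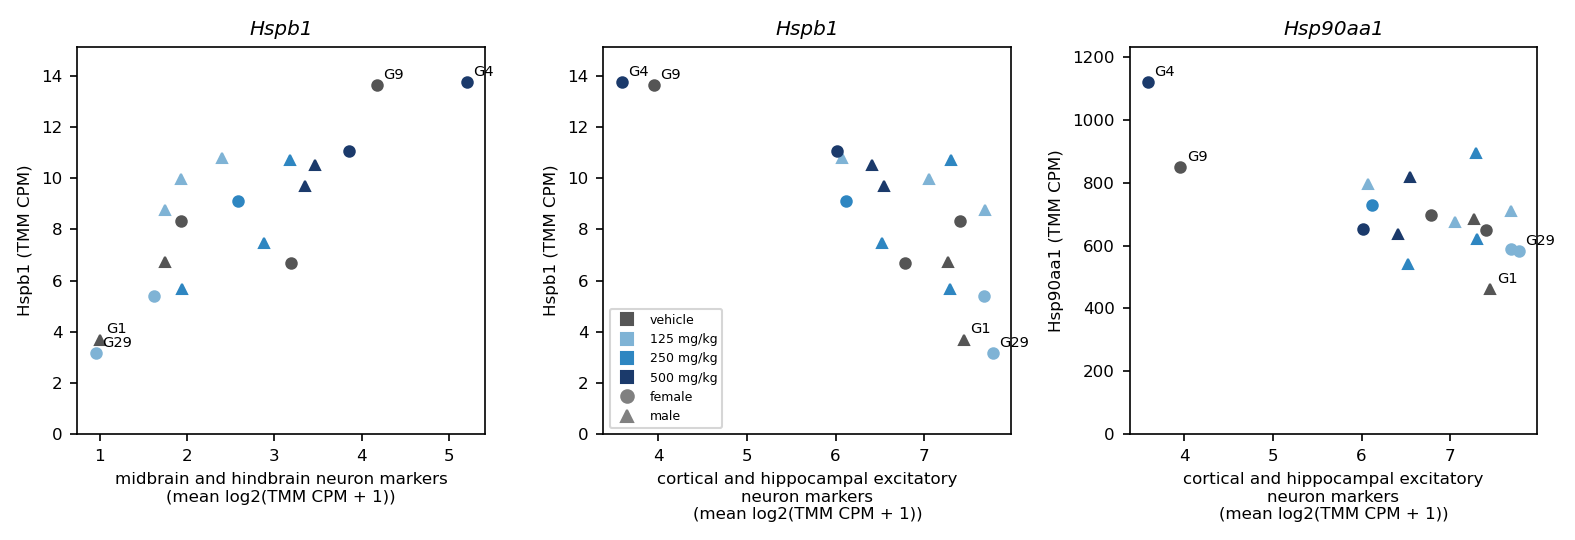
Hspb1 (CPM) against the mean level (log2(CPM + 1)) of midbrain and hindbrain neuron markers and of excitatory neuron markers, and Hsp90aa1 (CPM) against the excitatory neuron markers, 1 point per mouse, coloured by dose, with circles for females and triangles for males. G4 and G9 lie at the low end of the excitatory markers and have the 2 highest Hspb1 levels, 13.7 and 13.6 CPM. For Hsp90aa1 and the excitatory markers r was -0.66 over 18 mice. Over the 16 mice without G4 and G9 it was -0.31 (adjusted permutation p = 0.587).

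Other chaperone genes were described through 10 lists, and none of their members was called by edgeR in the dose regression. Of 19 tested genes of other Hsf1 targets, 0 passed, 2 had an unadjusted p under 0.05, and the median slope was 0.05. Bag3, a co-chaperone of Hsp70 in selective autophagy, had the smallest p, with 25.8 ± 10.3 CPM at 500 mg/kg and 15.2 ± 6.95 CPM in vehicle mice (slope 0.91, SE 0.26, adjusted p = 0.142). At 125 mg/kg Bag3 had 12.1 ± 1.86 CPM, below vehicle. DESeq2 called it (adjusted p = 0.0492), and edgeR did without the vehicle mouse G9 (slope 1.15, adjusted p = 0.0329). In the other 31 alternatives Bag3 was not called. Hspa4l, an Hsp110 relative, had a slope of 0.40 (adjusted p = 0.296). Among the 10 other Hsp70 family genes (0 called, median slope 0.13), Hspa2 had a slope of -0.50 (adjusted p = 0.352) and Hspa12b one of 0.41 (adjusted p = 0.377).

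In the list of 20 Hsp90 co-chaperones and paralogs 0 were called by edgeR, with a median slope of -0.01. Cdc37l1, a relative of the kinase-loading co-chaperone Cdc37, had 94.1 ± 18.6 CPM at 500 mg/kg and 67.8 ± 9.98 CPM in vehicle mice (slope 0.53, SE 0.14, adjusted p = 0.102). DESeq2 called it (adjusted p = 0.0204), and so did edgeR without the 500 mg/kg mouse G79 (slope 0.62, adjusted p = 0.0488). In the other 31 alternatives Cdc37l1 was not called. Fkbp5, a steroid receptor co-chaperone and a glucocorticoid target, had 40.3 ± 10.99 CPM at 500 mg/kg and 19.9 ± 5.99 CPM in vehicle mice (slope 0.92, adjusted p = 0.181). With 1 surrogate variable in the fit it was called (slope 1.31, adjusted p = 0.0116), and in the other 32 alternatives it was not.

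Of 29 tested endoplasmic reticulum chaperones and unfolded protein response genes 0 were called (median slope 0.03). Ppp1r15a, which encodes GADD34, the phosphatase subunit that reverses eIF2α phosphorylation, had 11.1 ± 0.349 CPM at 500 mg/kg and 16.6 ± 3.99 CPM in vehicle mice (slope -0.56, adjusted p = 0.142), and Edem1, which acts in glycoprotein degradation, had a slope of 0.29 (adjusted p = 0.301). The remaining lists held 0 calls of 26 J-domain co-chaperones (median slope 0.04), 13 nucleotide exchange factors (0.11), 3 of 9 small heat shock proteins that passed the filter (0.27), 12 mitochondrial chaperones and proteases (0.01), 14 chaperonin and prefoldin subunits (-0.08) and 8 heat shock factors and regulators (-0.10). Some genes stand in more than 1 list. The smallest p in those lists belonged to Dnajc27 (slope 0.31, adjusted p = 0.250), Bag3, Hspb8 (0.36, adjusted p = 0.617), Clpb (0.26, adjusted p = 0.360), Pfdn5 (-0.56, adjusted p = 0.206) and Hsbp1, an inhibitor of Hsf1 trimers (-0.33, adjusted p = 0.294).

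**Figure D5:**
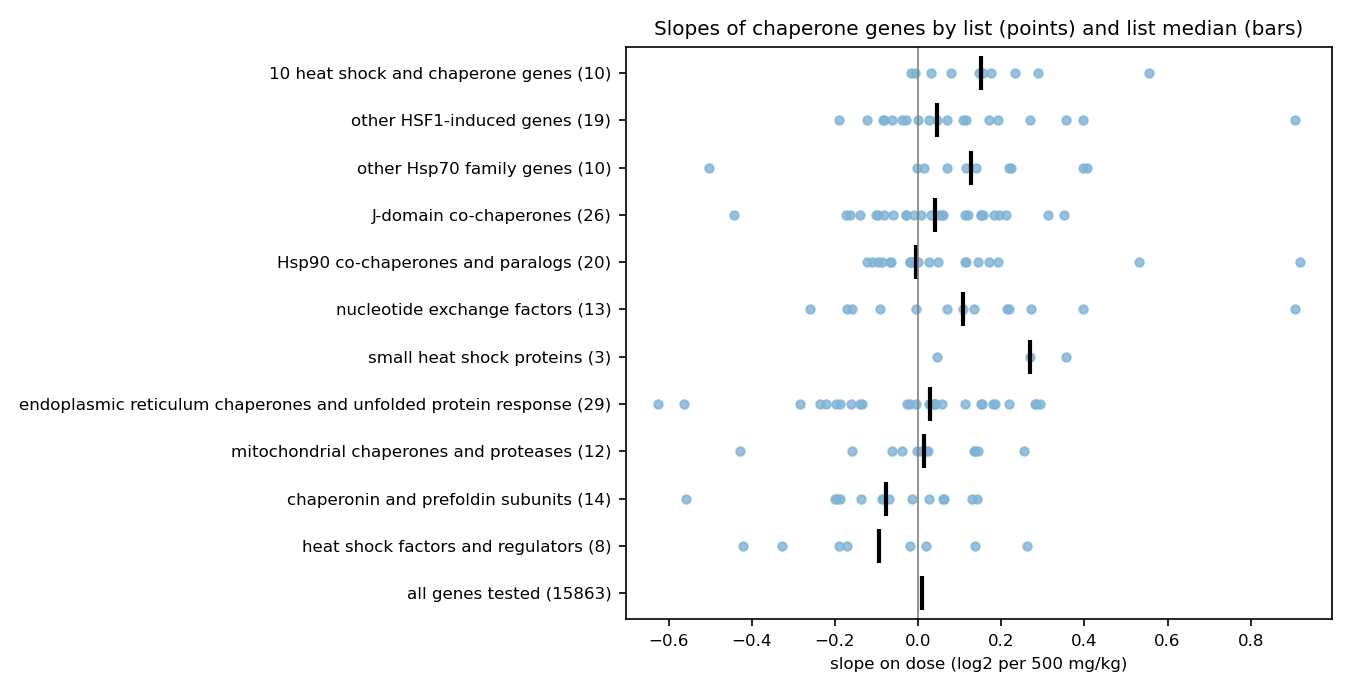
Slope on dose (x axis, log2 per 500 mg/kg) of each tested gene (points) in the 10 members and in 10 lists of other chaperone genes, with the number tested in parentheses and the list median as a bar, beside the median of all 15863 genes (0.01). The list medians lie between -0.10 and 0.27.

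Lists of related stress responses gave calls in the fit in which no member was called. The lists, like the members, were chosen with earlier results of these data known. Their counts of calls are thus a description only, with no weight as a test against the shares over all genes. Over all genes, 0.246% were called as higher and 0.0441% as lower with dose. Of 13 immediate early genes, which neuronal activity induces within minutes, 3 fell with dose: Btg2 (slope -1.86, adjusted p = 0.0150), Dusp1 (-0.99, adjusted p = 0.0361) and Ier2 (-1.47, adjusted p = 0.0361). Without G4 and G9 none of the 3 was called (slopes -1.79, -0.94 and -1.26, adjusted p = 0.132, 0.207 and 0.209). All 9 excitatory neuron markers also had negative slopes, and none was called. Their median slope was -1.40, against -1.23 for the immediate early genes. At 125 mg/kg the median log2 differences from vehicle were 0.52 for these markers and 0.18 for the 13 immediate early genes. Mean Btg2, Dusp1 and Ier2 were lower there than in vehicle mice (60.5 against 94.5, 71.7 against 86.4 and 20.1 against 26.8 CPM). G4 had the lowest sum of both lists, 373 and 335 CPM, and the part of these markers was not tested. Of 13 tested glucocorticoid-induced genes 4 rose: Errfi1 (1.05, adjusted p = 0.00571), Klf15 (0.79, adjusted p = 0.00571), Sgk1 (1.27, adjusted p = 0.0341) and Nfkbia (0.79, adjusted p = 0.0431). Without G4 and G9 Klf15 was still called (0.85, adjusted p = 0.0291), and Errfi1 (0.87, adjusted p = 0.0708), Sgk1 (0.98, adjusted p = 0.221) and Nfkbia (0.81, adjusted p = 0.173) were not. Over all 18 mice 11 of the 13 glucocorticoid-induced genes had positive slopes, and Per1 (-0.19) and Klf9 (-0.06) negative ones. DESeq2 called 6 of the glucocorticoid-induced and 4 of the immediate early genes, against 1.4% of its genes. Of 3 cold-induced RNA-binding genes, which respond to lowered temperature, none was called, and Rbm3 had 68.6 ± 11.1 CPM at 500 mg/kg and 101 ± 14.9 CPM in vehicle mice (slope -0.50, adjusted p = 0.190).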

How the data were processed

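RNA sequencing of brain hemispheres from 18 mice was analysed. The authors prepared stranded total RNA libraries with ribosomal RNA depletion and deposited raw counts per gene; their processing notes name STAR 2.7.5b, GRCm38, featureCounts, MultiQC 1.12 and DESeq2 1.34.0. Counts were filtered (edgeR's filterByExpr by dose group, minimum count 10), TMM-scaled and tested with edgeR 4.0.16 (R 4.3.3), quasi-likelihood F test, with sex as covariate and the slope per 500 mg/kg; p-values were Benjamini-Hochberg adjusted over 15863 genes with a threshold of 0.05. The common biological coefficient of variation was 25.8%. DESeq2 1.42.0, limma 3.58.1 (voom), sva 3.50.0, other scalings and filters, and leaving out mice were tried. Symbols and coordinates came from RefSeq (25275 of 27179 rows had a symbol), and exon lengths and transcripts from GENCODE. Named list genes were those called, otherwise up to 3 with the smallest p. The members and lists were chosen with earlier results of these data known. Groups came from the sample labels, 1 library per mouse, so p-values measure the spread between mice.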

Additional observations from a re-analysis of the deposited data

How the results depend on the processing

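The count of members called was 0 in all 7 comparisons under every alternative run, and the median slope stayed between -0.01 (a block on the tag number) and 0.24 (males alone), or 0.11 to 0.23 when 1 mouse was left out. Single slopes changed sign in some alternative for every member but Hspa5 and Hsp90aa1, none with an adjusted p under 0.05, and the cause was not tested. Those of Hspa8, Hspb1 and Hsf1 changed sign in 1 alternative each, and that of Hsph1 in 4. Without G4 and G9 the slopes were 0.19 for Hspa1b, -0.072 for Hsph1 and -0.046 for Dnajb1. With that tag number as a block they were 0.30 for Hspa1b, -0.28 for Hsph1, -0.017 for Dnajb1, -0.19 for Hspb1 and -0.27 for Hsf1. Without the vehicle mice they were -0.020 for Hspa1a, -0.16 for Hsph1 and -0.19 for Dnajb1, and without the 500 mg/kg mice -0.10 for Hspa8 and 0.047 for Hsp90ab1. Hspa1b was at 0.10 without the sex covariate, 0.10 with 1 surrogate variable, 0.38 in males alone, 0.014 with limma-voom and 0.032 summed with Hspa1a. Hsp90ab1 was at 0.038 with the surrogate variable and 0.036 in males alone, and Hspa1a at -0.48 in females alone. Leaving out 1 mouse gave -0.055 to 0.21 for Hspa1a, -0.24 to 0.19 for Hspa1b, -0.0100 to 0.25 for Hsph1, -0.038 to 0.088 for Dnajb1 and -0.12 to 0.11 for Hsp90ab1.

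The labels number no replicates across groups. The tag number opens each sample title, and its meaning is not given in the sources used here. Of its values 2, 43 and 46, occur in more than 1 dose group, so a slope within blocks rests on those mice and on the sex term. In both, all vehicle mice were female and all glyphosate mice male, so dose and sex cannot be told apart within either. Number 45 is the only one with both sexes at a single dose, and its only female is G49. With 4 or 5 mice per group the intervals of single members were wide, so moderate changes could have gone uncalled. For Hspb1 the interval was -0.72 to 0.87 at 250 mg/kg against vehicle. It was -1.44 to 1.32 for the difference in slope between the sexes.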
